A study of Mus musculus with 8 samples.

Results

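The cells described here were 50 of 31804 cells from mouse heart, liver and kidney allografts, selected by the UMIs (unique molecular identifiers, 1 for each captured RNA molecule) of genes that dendritic cells express. A selected cell held at least 2 UMIs in all of Flt3, Xcr1, Clec9a, Cd209a, H2-Oa and Ffar2, and at least 10 of the MHC class II genes H2-Aa, H2-Ab1, H2-Eb1 and Cd74. It held fewer than 5 UMIs of the C1q complement genes C1qa, C1qb and C1qc that mark macrophages, none of the B cell genes Cd79a and Cd79b, and at most 1 of the T cell genes Cd3d, Cd3e, Cd3g and Trac. Cells under 500 UMIs, or with more than 10% of them mitochondrial, were set aside first. The selected cells were 0.157% of such tissue cells. The 8 libraries of the series, blood included, held 47541 cells that passed the same limits.

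The study moved hearts, livers and kidneys from BALB/c donor mice into C57BL/6 recipients with no immunosuppressive drug and collected cells by Microwell-seq, in which single cells are caught in small wells with barcoded beads, at day 7 after transplantation. The labels give male mice of 8 weeks and the strain BALB/c for every library. PBMC were the mononuclear cells of recipient blood, TIL the graft-infiltrating leukocytes taken from a density gradient, and PC the cells of the collagenase-digested graft. The 5 tissue libraries were heart TIL, liver PC, liver TIL, kidney PC and kidney TIL, with 1 library each. The grafts came from 2 recipients per organ, and whether a library pooled them was not stated. No condition could therefore be tested against another. A test within libraries compared sums of cells from each of these 5 libraries, with a spread estimated partly over all genes together. Its p-value does not measure the spread between animals, nor that of a single gene between libraries alone.

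Dendritic cells take up antigen, present it on MHC class II and class I, and start T cell responses. After transplantation they are known both as donor cells carried over with the organ and as recipient cells that enter it. Conventional type 1 dendritic cells carry the chemokine receptor Xcr1 and the dead-cell receptor Clec9a, depend on the transcription factors Irf8 and Batf3, and present antigen of other cells on class I. Conventional type 2 cells carry Cd209a, Sirpa and Clec10a and depend on Irf4. Mature dendritic cells of both types raise Ccr7 and Fscn1 and migrate to lymph nodes.

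Each library held 10000 barcodes and between 3418722 and 19171264 UMIs over them. The library labelled heart TIL held 1056 UMIs of the hepatocyte gene Alb and 2 of the cardiac atrial gene Myl7. The library labelled liver TIL held 0 UMIs of Alb and 128 of Myl7. Organ genes thus went against both labels. Gene counts without both libraries are given, with calls of named genes that were lost without them; the clustering below was run with them only. The liver PC library held 1429 UMIs of Alb and the kidney PC and kidney TIL libraries 2801 and 3314 of the tubule gene Kap. Of the tissue cells, 5052 (15.9%) had a barcode that also occurred in another library, as did 5 of the 50 selected cells.

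Most selected cells, 35 of 50, came from liver PC. They were 0.35% of its 10000 cells (95% exact binomial interval 0.244 to 0.486%). The library labelled heart TIL gave 6 of 9668 cells (0.0621%, 0.0228 to 0.135%) and the library labelled liver TIL 3 of 9337 (0.0321%, 0.00663 to 0.0939%). Kidney PC gave 2 of 795 (0.252%, 0.0305 to 0.906%) and kidney TIL 4 of 2004 (0.200%, 0.0544 to 0.510%). The intervals of liver PC and of both kidney libraries overlapped; those of liver PC and of the heart and liver TIL libraries did not at the deposited depth. The intervals cover counting error only. Among cells with the same MHC class II minimum, the share was 2.11% in liver PC, 1.28% in kidney TIL, 1.03% in kidney PC, 0.264% in heart TIL and 0.0781% in liver TIL. Depth differed between libraries, with a median of 1501 UMIs per cell in liver PC and between 581 and 794 in the other 4 tissue libraries, so the shares were set beside counts thinned to 500 UMIs per cell. After thinning, the share was 0.14% in liver PC (0.0766 to 0.235%), 0.0517% in heart TIL (0.0168 to 0.121%) and 0.0214% in liver TIL (0.00259 to 0.0774%). It was 0.252% in kidney PC and 0.150% in kidney TIL. At this equal depth the intervals of all 5 libraries overlapped that of liver PC, which lay below both kidney libraries in value. All limits were applied anew to the thinned counts, so cells outside the 50 could enter. In liver PC 14 cells met them, while 9 of the 35 selected cells still reached the 6-gene sum.

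The 6 genes that chose the cells are described here without a test. Flt3, on mouse chromosome 5 at 147330741 to 147400489 of GRCm38, encodes the receptor for the growth factor that sustains dendritic cells, and 11 of the 50 cells held it. Xcr1, on chromosome 9 at 123852315 to 123862029, was held by 9 cells. Clec9a, on chromosome 6 at 129408862 to 129424763, was held by 7. Cd209a, on chromosome 8 at 3743397 to 3748984, was held by 0. H2-Oa, on chromosome 17 at 34092340 to 34095234, encodes a chain of the DO molecule that restrains peptide loading on class II, and 33 cells held it. Ffar2, on chromosome 7 at 30818348 to 30823775, encodes a receptor for short-chain fatty acids that neutrophils also express, and 28 cells held it. Xcr1 or Clec9a was present in 13 cells, 12 of them from liver PC and 1 from kidney TIL. Another 4 cells held Flt3 without either gene. The remaining 33 cells were selected on H2-Oa or Ffar2 alone, including all 6 cells of the library labelled heart TIL.

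**Figure D1:**
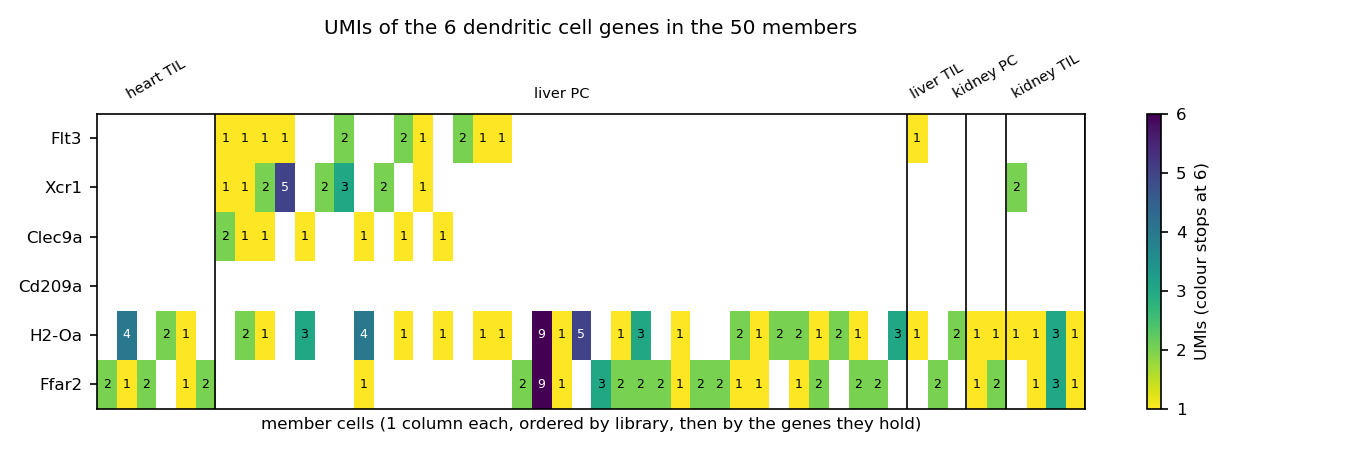
UMIs of the 6 genes (vertical axis) in each of the 50 selected cells (1 column per cell, ordered by library, the number printed in each filled square and white for 0). Cd209a is empty throughout, and Xcr1 or Clec9a fills 12 liver PC columns and 1 kidney TIL column.

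The most frequent combination was H2-Oa with Ffar2, in 17 cells, followed by Ffar2 alone in 10 and H2-Oa alone in 6. In 28 of the 50 cells the 6 genes summed to exactly 2 UMIs, the minimum. The highest sum was 18, in a liver PC cell with 9 UMIs each of H2-Oa and Ffar2. These genes were not restricted to the selected cells. Of 72 Xcr1 UMIs in tissue cells 26.4% lay in them, as did 15.7% of 89 for Flt3, 14.4% of 374 for Ffar2, 8.98% of 735 for H2-Oa and 3.31% of 242 for Clec9a. For Clec9a, 77 UMIs lay in cells with at least 5 C1q UMIs and 26 in T cells. Cd209a had 6 UMIs in tissue in all.

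A sum of at least 2 also occurred in other cells. This sum was part of the selection, so its shares are a description. In liver PC it was reached by 6 of 3426 T cells with at least 2 Cd3 or Trac UMIs (0.175%, 0.0643 to 0.381%; median 1420.5 UMIs). It was reached by 35 of the 692 MHC class II-high cells within the C1q, B and T cell limits (5.06%, 3.55 to 6.96%). Thinned to 500 UMIs, the shares were 0.0876% of T cells and 1.30% of those 692 cells (0.596 to 2.45%). The share of those 692 cells lay above the T cell share at both depths. By definition the former held at least 10 MHC class II UMIs and the latter fewer, so this difference is a description only. C1q-high cells reached the sum in 9 of 1006 cells (0.895%, 0.410 to 1.69%), and after thinning in 0.199% (0.0241 to 0.716%), an interval that overlapped that of the 692 cells. Cells with at least 2 Cd79a or Cd79b UMIs, within the C1q and T cell limits, are called Cd79 cells. They reached the sum in 2 of 33 (6.06%, 0.743 to 20.2%). In the other libraries the share within the limits was 6 of 1125 cells for heart TIL (0.533%), 3 of 2043 for liver TIL (0.147%), 2 of 157 for kidney PC (1.27%) and 4 of 201 for kidney TIL (1.99%). Among T cells it was 0 of 2980, 1 of 1386, 1 of 218 (0.459%) and 0 of 1017 there. In C1q-high cells it was 1 of 1186 in heart TIL (0.0843%), 0 of 1840 in liver TIL and 1 of 120 in kidney TIL (0.833%). Outside liver PC the intervals thus overlapped those of T cells, C1q-high cells or both in each library.

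The selected cells were compared with 2 kinds of cell from the same libraries. The first were 4199 C1q-high cells, with at least 5 C1q UMIs and the same MHC class II, B and T cell limits, the macrophage-type cells of these grafts. The second were 4032 cells that met every limit but held none of the 6 genes, called MHC II-high cells below. UMIs were summed per library and kind and scaled to a total of 1000000, which gives counts in CPM. Cst3, which encodes cystatin C, a protease inhibitor expressed at a high level in dendritic cells, stood higher in the selected cells than in both kinds in all 5 libraries. In liver PC it stood at 14557 CPM (95% exact Poisson interval 13668 to 15490), against 1981 in C1q-high and 2259 in MHC II-high cells. In the library labelled liver TIL it was 20583 (15176 to 27290), against 2414 and 2011. In kidney TIL it was 11712 (8441 to 15832), against 1789 and 1670. The lowest levels were 3467 in kidney PC (1126 to 8092), against 1494 and 1641, and 3432 in the library labelled heart TIL (2097 to 5301), against 1787 and 2022. In kidney PC, with 2 cells, the interval included the levels of both other kinds. In the other 4 libraries it lay above both. In liver TIL 35 of the 48 Cst3 UMIs of the selected cells lay in 1 cell, and in kidney TIL 25 of 42 did. The intervals cover counting error and not the spread between cells.

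In a joint fit of the 5 libraries, Cst3 was 5.44-fold higher than in C1q-high cells (log2 2.44, SE 0.18, adjusted p = 2.19e-36, edgeR's quasi-likelihood test with the library as a block). Relative to MHC II-high cells it was 4.98-fold higher (log2 2.32, SE 0.20, adjusted p = 9.83e-29, edgeR). The first call was kept under each alternative that was run. The second was lost when cells needed at least 1000 UMIs (log2 1.60, adjusted p = 0.135). Without the libraries labelled heart TIL and liver TIL both calls were kept. The spread behind these p-values was partly pooled over genes, and 68488 of the 81675 UMIs of the selected cells came from liver PC. Their size is therefore not a measure of how evenly Cst3 rose across libraries.

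Single cells varied widely. Cst3 ran from 0 to 103 UMIs per selected cell, with a median of 89.0 per 10000 UMIs and a maximum of 551. In liver PC 19 of 35 selected cells held at least 100 per 10000 (54.3%, 36.6 to 71.2%), against 3 of 1006 C1q-high cells (0.298%), 7 of 614 MHC II-high cells (1.14%) and 1 of 3426 T cells. The other libraries had 2 of 3 such cells in liver TIL, 2 of 4 in kidney TIL, and 0 of 6 and 0 of 2 in heart TIL and kidney PC. By gene, 11 of the 13 cells with Xcr1 or Clec9a reached it, 2 of the 4 with Flt3 but neither of these, and 10 of the 33 chosen on H2-Oa or Ffar2 only.

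**Figure D2:**
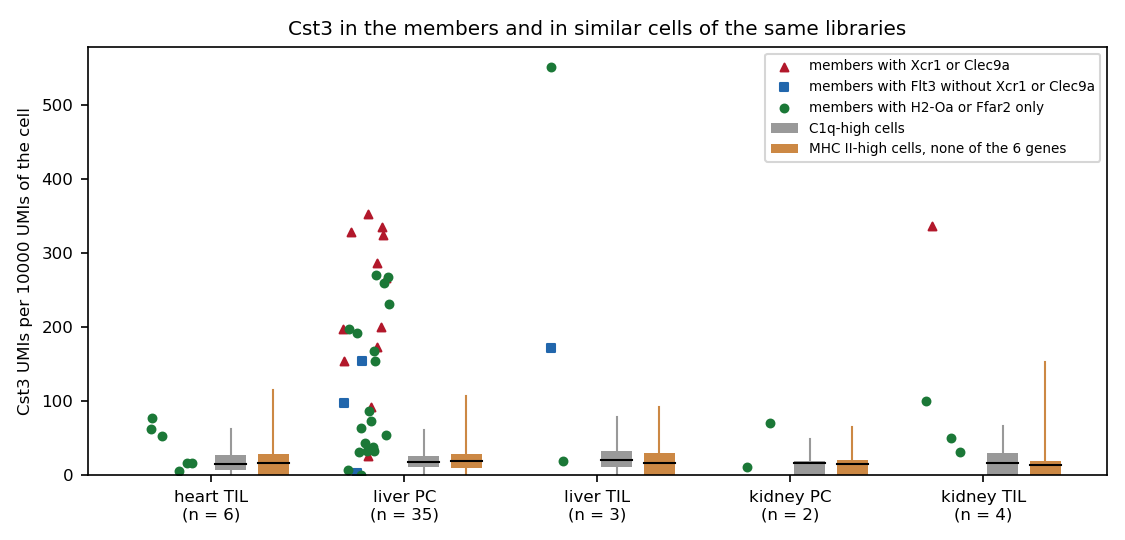
Cst3 UMIs per 10000 UMIs of each cell (vertical axis) by library: points are single selected cells, by the genes they held; boxes are the 25th to 75th percentiles of C1q-high and MHC II-high cells with the median as a black line, and whiskers run from the lowest value to the 99th percentile. In liver PC 19 of 35 points lie at or above 100 per 10000, and no heart TIL or kidney PC point does.

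Of the 7 marker genes given for dendritic cells, H2-DMb2 alone was not used in the selection, and 12 of the 50 cells held it. H2-DMb2 encodes a chain of the DM molecule that loads peptide onto class II. Its UMIs in the selected cells were 13 in liver PC, 2 in heart TIL, 1 in kidney TIL and 0 in liver TIL and kidney PC. In liver PC that was 190 CPM against 21.1 in C1q-high and 22.7 in MHC II-high cells (log2 ratios 3.17, interval 2.15 to 4.08, and 3.07, 1.95 to 4.12). The 33 Cd79 cells of liver PC held 17 H2-DMb2 UMIs in 10 cells, of 62267 UMIs in all. The selected liver PC cells held their 13 in 9 cells, of 68488 UMIs, and so were not higher than those Cd79 cells. This difference was not tested. Of 768 H2-DMb2 UMIs in tissue cells 2.08% lay in the selected cells. In the joint fit H2-DMb2 was 5.42-fold higher than in MHC II-high cells (log2 2.44, SE 0.46, adjusted p = 3.30e-05, edgeR) and was higher in 3 of 5 libraries. This call was lost without heart TIL and liver TIL together (log2 2.12, adjusted p = 0.107), without H2-Oa and Ffar2 in the selection (2.31, 0.563) and without the library block (1.67, 0.744). Without liver PC, which held 13 of the 16 UMIs in selected cells, H2-DMb2 was too low to be tested. In the joint fit it passed the filter on low counts only with the sums of the selected cells, so the call is a description. Xcr1 and Clec9a were part of the selection and do not check the name. Of the 13 cells that held them, 2 had Cst3 under 100 per 10000, among them a liver PC cell at 26.0 with 23 Lyz2 UMIs and none of Irf8, Wdfy4 or Batf3. Of the 33 cells chosen on H2-Oa or Ffar2 alone, 23 had Cst3 under 100 per 10000 and 6 had fewer than 20 MHC class II UMIs. The 50 cells are therefore called the selected cells.

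Against C1q-high cells 23 genes were higher and 51 lower at an adjusted p under 0.05, of 733 tested with the genes of the selection left out (3.14% and 6.96%, 10.1% in either direction). Of these, 8 and 31 went the same way in all 5 libraries. The number rested on single libraries. It was 8 higher and 17 lower without liver PC, 40 and 64 without liver TIL, and 39 and 71 without kidney PC. With heart TIL and liver TIL both left out it was 48 and 66. With TMM scaling, which moved the median log2 value of all genes from 0.04 to -0.08, it was 8 and 46, and with RLE size factors, at a median of -0.07, 16 and 63. Because C1q chose the comparison cells, genes that macrophages express together with C1q were placed in that contrast by the choice itself, and their values describe it.

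The higher genes with the same direction in all 5 libraries were Cst3, Lsp1, Sub1, Ptma, Tmsb10 and 3 ribosomal protein genes. Lsp1, an actin-binding protein of leukocytes, stood in the selected cells at 1545, 1387, 858, 693 and 1115 CPM in heart TIL, liver PC, liver TIL, kidney PC and kidney TIL. These levels rested on 9, 95, 2, 1 and 4 UMIs in that order, so the direction in kidney PC was that of 1 UMI. In C1q-high cells Lsp1 stood at 347, 285, 422, 509 and 250, below the selected cells in each library (3.99-fold, SE 0.38 on the log2 scale, adjusted p = 7.14e-06, edgeR). Restricted to cells of at least 1000 UMIs its adjusted p was 0.0657. The transcriptional coactivator Sub1 rose by 1.22 on the log2 scale (SE 0.29, adjusted p = 0.000494, edgeR), a call lost with TMM (adjusted p = 0.0526). Calls for Rps3a1, Rps27 and Rpl14, with log2 values of 0.67, 0.63 and 0.61, were lost with TMM, RLE and DESeq2, and that for Rps27 also without heart TIL and liver TIL together (adjusted p = 0.0532). Ptma was lost with TMM (0.212) and DESeq2 (0.334), and Tmsb10 with TMM (0.493), DESeq2 (0.679) and shared barcodes left out (0.0762).

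Macrophage genes were lower. Of the 12 listed macrophage genes 5 were tested and 4 fell, with a median log2 of -2.30 against 0.04 over all genes tested. Of all those genes 6.96% were lower. Apoe, a lipid carrier, had 9, 28, 0, 0 and 0 UMIs in the selected cells of heart TIL, liver PC, liver TIL, kidney PC and kidney TIL. In C1q-high cells its level ran from 883 to 7312 CPM (log2 -3.12, SE 0.30, adjusted p = 2.00e-23, edgeR). Lyz2, lysozyme, stood between 2573 and 9015 CPM in the selected cells and between 10803 and 16878 in C1q-high cells, with no overlap (log2 -1.38, SE 0.17, adjusted p = 2.19e-13, edgeR). The haem oxygenase Hmox1 (log2 -3.15), the lysosomal protease Lgmn (-3.08), the Fc receptor Fcgr3 (-2.87) and the matrix protein Tgfbi (-2.53) also fell. In this comparison with C1q-high cells these 4, with Cst3, Apoe and Lyz2, kept their call under each alternative in which they were tested. No other listed or named gene did. Ctsd, another lysosomal protease, fell by 2.32 on the log2 scale (adjusted p = 4.89e-08, edgeR) and lost the call without liver PC (log2 -1.14, adjusted p = 0.12).

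Against MHC II-high cells 15 genes were higher and 39 lower, of 1141 tested (1.31% and 3.42%, 4.73% in either direction), and 4 and 20 went the same way in every library. The count was 6 higher and 10 lower without liver PC, 36 and 76 without liver TIL, 11 and 22 without heart TIL, and 17 and 46 without heart TIL and liver TIL together. With TMM, at a median log2 of -0.28 against -0.00, it was 8 and 55, and with RLE, at -0.10, 13 and 49. The 4 that were higher in every library were Cst3, Mcm7, Lsp1 and Ptma, with Lsp1 at 1 UMI in the selected kidney PC cells. Ptma rose by 1.06 on the log2 scale and lost the call without liver PC (adjusted p = 0.0907) or kidney PC (0.0521). Mcm7, part of the DNA replication helicase, rose by 1.74 on the log2 scale (SE 0.44, adjusted p = 0.00374, edgeR) and missed the threshold without heart TIL (adjusted p = 0.0596) and without heart TIL and liver TIL together (0.240). Lsp1 rose by 1.28 (adjusted p = 0.0221, edgeR), a call lost without heart TIL (0.164), without liver PC (0.413) and without kidney TIL (0.0599). With TMM and DESeq2 the calls of Lsp1 (0.255 and 0.322), Ptma (0.349 and 0.385) and Plbd1 (0.227 and 0.327) were lost too. Plbd1, a phospholipase of dendritic cells, rose by 1.42 (SE 0.42, adjusted p = 0.0214, edgeR) in 4 of 5 libraries and lost the call without liver PC (0.772) or kidney PC (0.0687). Among the lower genes were the C-type lectin Clec4a3 (log2 -3.28, adjusted p = 0.00141), osteopontin Spp1 (-3.23, 4.23e-06), Apoe (-2.09, 1.50e-06) and Lyz2 (-1.54, 7.51e-15), all by edgeR. Clec4a3 and Spp1 lost their calls when H2-Oa and Ffar2 were left out of the selection (adjusted p = 0.0730 and 0.114, edgeR). Lyz2 lost its call at 1000 UMIs (log2 -1.235, adjusted p = 0.340, edgeR). Apoe lost its call without the library block (-1.907, 0.503).

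The listed genes shared by dendritic cell types were few in number in these sums, and liver PC, with 68488 UMIs in its 35 selected cells, carried most of the values. Of 12 such genes, 2 were tested against C1q-high cells and 1 rose, where 3.14% of all genes tested were higher (median log2 1.60 against 0.04). Against MHC II-high cells 3 were tested and all 3, Cst3, H2-DMb2 and Plbd1, rose. There 1.31% of all genes tested were higher (median 2.32 against -0.00). The filter on low counts used the sums of the selected cells too, so a gene high in them was likelier to be tested. The shares of tested genes that rose, here and in the lists below, are therefore a description. In liver PC, Kmo, a kynurenine pathway enzyme, stood at 102 CPM against 2.82 in C1q-high and 7.21 in MHC II-high cells (log2 5.18, interval 3.38 to 7.03, and 3.83). The peptidase Dpp4 stood at 146 CPM against 7.51 and 12.4 (log2 4.28 and 3.56). The creatine kinase Ckb stood at 569 against 183 and 63.9 (1.64 and 3.16). Itgax, the CD11c integrin chain, did not separate from C1q-high cells (0.21, -1.43 to 1.47), and Zbtb46, a transcription factor of conventional dendritic cells, had 1 UMI. Ciita, the activator of class II transcription, had 0 UMIs, which allows up to 43.8 CPM.

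**Figure D3:**
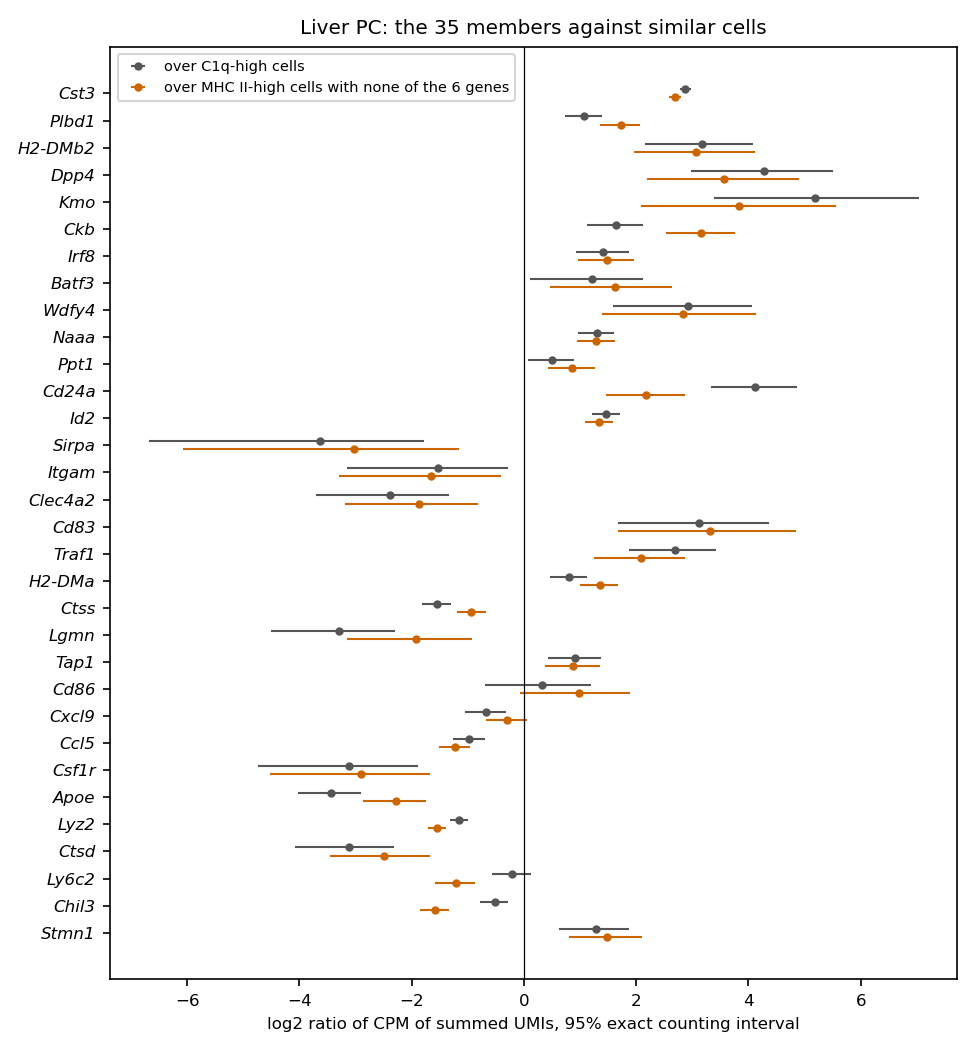
log2 ratio of CPM (horizontal axis) of the 35 selected liver PC cells over C1q-high cells (grey) and over MHC II-high cells (orange) of the same library for 32 listed genes; bars are 95% exact counting intervals. Cst3 lies at 2.88 and 2.69, Apoe at -3.44 and -2.28, and the intervals of Cd86 cross 0.

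The selection used the type 1 genes Xcr1 and Clec9a, so the levels of other type 1 genes follow in part from the choice of cells. All 15 listed genes of type 1 dendritic cells had UMIs in the selected liver PC cells, with a sum of 6775 CPM against 2658 in C1q-high and 2645 in MHC II-high cells. In liver TIL it was 8148 CPM (4905 to 12723), against 2387 and 2168. In heart TIL it was 2403 (1314 to 4031), against 2508 and 2426, and was not higher. In kidney PC it was 2080 and in kidney TIL 2510, with intervals that included the levels of both other kinds. Against C1q-high cells 5 of the 15 were tested and 3 rose, with a median log2 of 1.09 against 0.04 over all genes tested, of which 3.14% were higher. The interferon-inducible gene Ifi205 rose by 1.62 on the log2 scale (SE 0.32, adjusted p = 1.30e-05), the transcriptional inhibitor Id2 by 1.20 (SE 0.37, 0.0151) and Irf8 by 1.09 (SE 0.38, 0.0441), by edgeR and each in 4 of 5 libraries. The Ifi205 call was lost with DESeq2 (log2 1.08, adjusted p = 0.438), at 1000 UMIs (0.115) and without a filter (0.0823). The Id2 call was lost without liver PC (log2 0.81, adjusted p = 0.523) or kidney TIL (0.0823), and the Irf8 call without heart TIL (0.201), kidney PC (0.177) or kidney TIL (0.0710). Id2 was lost with TMM (0.111) and DESeq2 (0.424), and Irf8 with TMM (0.312), RLE (0.0502), DESeq2 (0.875) and shared barcodes left out (0.108). In the fit against MHC II-high cells 5 were tested and 0 passed, at a median of 1.03, where 1.31% of all genes tested were higher. The values were 1.18 for Ifi205 (adjusted p = 0.104), 1.04 for Irf8 (0.192), 1.03 for the amidase Naaa (0.177), 0.92 for the thioesterase Ppt1 (0.255) and 0.83 for Id2 (0.255). In liver PC the vesicle trafficking gene Wdfy4, needed for cross-presentation, stood at 117 CPM against 15.5 and 16.5 (log2 2.91 and 2.83). Batf3 stood at 146 against 63.4 and 47.4 (1.20, interval 0.11 to 2.13, and 1.62).

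Genes of type 2 dendritic cells were low in liver PC. Of type 2 genes the selection used Cd209a only, which had 6 UMIs in tissue, so the choice of cells itself leaned to type 1. In liver PC 7 of 12 listed genes had UMIs, with a sum of 409 CPM against 1191 in C1q-high and 971 in MHC II-high cells, and Irf4, Mgl2, Clec10a, Klf4 and Notch2 were at 0. Sirpa, an inhibitory receptor also found on macrophages, had 2 UMIs, 29.2 CPM against 363 and 238 (log2 -3.64, -6.69 to -1.78, and -3.03). In the library labelled heart TIL the 12 genes summed to 172 CPM (4.34 to 956), an interval that included both other kinds at 929 and 833. None of the 12 genes was tested in either fit, since their counts were too low. Of 12 listed plasmacytoid dendritic cell genes 3 had UMIs in liver PC, at a sum of 336 CPM against 387 and 498, and the defining gene Siglech was at 0.

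Among the liver PC cells, the 12 with Xcr1 or Clec9a were set beside the other 23, with counting intervals and no test, since both groups came from a single library. Their median depths were 2092 and 1425 UMIs. Cst3 stood at 21609 and 9654 CPM (log2 ratio 1.16, 0.98 to 1.35). Naaa stood at 2456 and 470 (2.38, 1.64 to 3.20), Irf8 at 1175 and 223 (2.40, 1.30 to 3.65), Ppt1 at 1460 and 347 (2.07) and Plbd1 at 2065 and 619 (1.74, 1.04 to 2.48). The heat-stable antigen Cd24a stood at 641 and 149 (2.11). Wdfy4 had 7 and 1 UMIs, Rab7b 8 and 2, Gcsam 6 and 0 and the double-stranded RNA sensor Tlr3 3 and 0. For Naaa, Irf8, Ppt1, Cd24a, Wdfy4 and Rab7b, type 1 genes that the selection did not use, the intervals of the ratio lay above 0. Batf3, at 6 and 4 UMIs, did not separate (1.11, -0.97 to 3.38), nor did Id2 (0.37, -0.11 to 0.85), Lsp1 (-0.06) or H2-DMb2 (-0.15, -2.11 to 1.64).

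Outside the type 1 list, the 12 cells had a higher level of Cxcl9, a chemokine for Cxcr3-bearing T cells (1638 against 495 CPM, log2 1.73, 0.94 to 2.56), and of H2-DMb1 (1460 against 520, 1.49). They had a lower level of the membrane protein Ifitm1 (427 against 1460, -1.77, -2.80 to -0.86) and of the protease Ctss (1139 against 2401, -1.08). The receptor Clec4e had 1 UMI against 18 and the chemokine Ccl3 2 against 16. The immunoglobulin gene Jchain had 4 UMIs against 50, and 49 of the 54 lay in 1 cell of the other group.

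**Figure D4:**
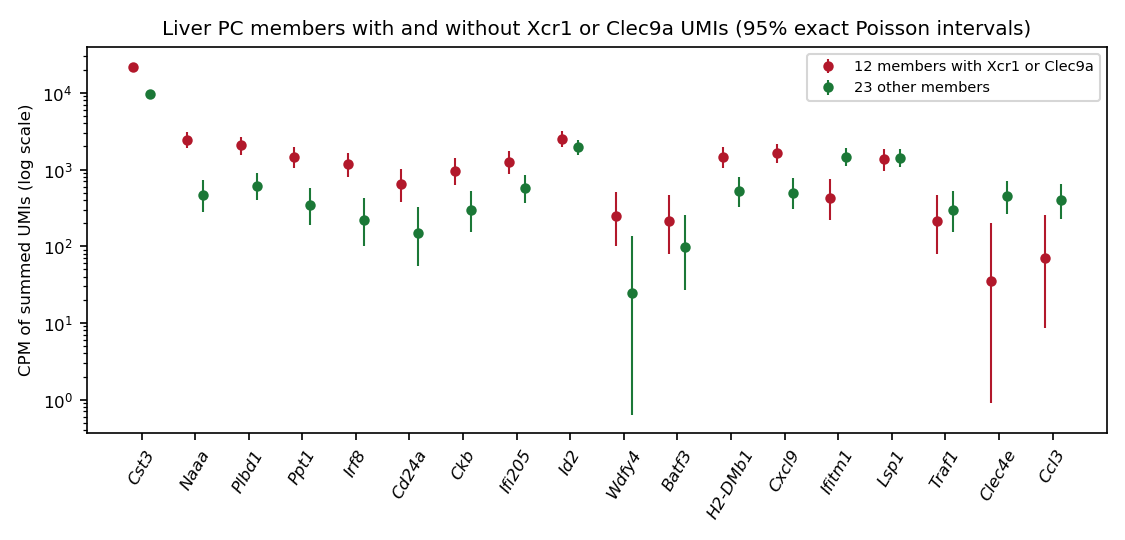
CPM of summed UMIs (vertical log axis) for 18 genes in the 12 liver PC cells with Xcr1 or Clec9a (red) and in the 23 without (green), with 95% exact Poisson intervals. Naaa, Irf8, Ppt1 and Plbd1 lie higher in red, Ifitm1, Clec4e and Ccl3 lie lower, and Lsp1 and Id2 overlap.

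Maturation genes were present at low counts. In liver PC 15 of 20 listed genes of mature dendritic cells had UMIs, with a sum of 1650 CPM against 917 in C1q-high and 997 in MHC II-high cells. In heart TIL the sum was 515 CPM against 992 and 1034, in liver TIL 858 against 793 and 917, in kidney PC 1387 against 577 and 554, and in kidney TIL 558 against 563 and 470. Intervals of the selected cells included both other levels in these 4 libraries. The surface protein Cd83 stood at 102 CPM against 11.7 and 10.3 (log2 3.12 and 3.31), and the signalling adaptor Traf1 at 263 (2.69 and 2.09). The migration receptor Ccr7 had 2 UMIs, the chemokine Ccl22 had 2 and the actin bundler Fscn1 had 4. Il12b and Ccl17 were at 0. None of the 20 was tested in either fit. The costimulatory ligand Cd86, at 161 CPM, did not separate from C1q-high cells (0.33, -0.69 to 1.19) or from MHC II-high cells (0.98, -0.08 to 1.90). Cd80 and Cd274, the ligand of PD-1, were at 0 UMIs.

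Antigen presentation genes outside the selection moved in different directions. Of 10 listed class II pathway genes 6 were tested against C1q-high cells, and 0 rose and 2 fell, Lgmn and Ctss (log2 -1.10, SE 0.20, adjusted p = 2.70e-06, edgeR). Of all genes tested in that fit 3.14% were higher and 6.96% lower. Against MHC II-high cells 7 were tested, H2-DMb2 rose and Lgmn fell (-1.80, adjusted p = 0.0413, edgeR), a call lost without kidney PC (0.0788) or kidney TIL (0.0659). Of all genes tested in this second fit 1.31% were higher and 3.42% lower. In liver PC H2-DMa stood at 1256 CPM (log2 0.80 and 1.35 over the C1q-high and MHC II-high cells) and H2-DMb1 at 905 (0.37, -0.02 to 0.74, and 1.03). Of 12 listed class I genes 8 were tested against C1q-high cells and the immunoproteasome subunit Psmb8 rose (log2 0.70, adjusted p = 0.0151, edgeR). This call was lost without heart TIL (0.0540), liver PC (0.0874), kidney PC (0.108) or kidney TIL (0.132). As 3.14% of all genes tested were higher, 1 of 8 is not read as a result about the list. With TMM the value of Psmb8 was 0.41 (adjusted p = 0.678), with RLE 0.56 (0.103) and with DESeq2 0.39 (0.896). Set against MHC II-high cells 9 were tested and 0 passed, where 4.73% of all genes tested did. The 15 listed chemokine genes had 9 tested against C1q-high cells and 5 fell, Ccl8 (log2 -3.26), Ccl9 (-1.73), Ccl6 (-1.65), Cxcl10 (-1.46) and Cxcl9 (-1.12). Of all genes tested in that fit 6.96% were lower. The Ccl6 call was lost without heart TIL (adjusted p = 0.0644), and the Cxcl10 call without heart TIL (0.0992), kidney PC (0.0734) or kidney TIL (0.124). Cxcl9 was at -0.28 (adjusted p = 0.802) without H2-Oa and Ffar2 in the selection and at -0.56 (0.272) with a sum of at least 3, and Ccl9 at -0.97 (0.847) with DESeq2. Ccl5 was the only chemokine of 9 to fall against MHC II-high cells (-0.81, adjusted p = 0.0221, edgeR), and its adjusted p was 0.599 without liver PC. In that fit 3.42% of all genes tested were lower, so 1 of 9 is not read as a result about the list. Of 14 listed interferon-stimulated genes 8 were tested against C1q-high cells and Irf7 fell (-1.64, adjusted p = 0.0151, edgeR, and 0.0658 without heart TIL). As 6.96% of all genes tested were lower, 1 of 8 is not read as a result about this list. Against MHC II-high cells 9 of the 14 were tested and 0 passed, where 4.73% of all genes tested did. Of 12 cell cycle genes 2 of 4 tested rose against C1q-high cells, Birc5 (1.56) and Stmn1 (1.22), at a list median of 1.07 against 0.04, where 3.14% of all genes tested were higher. Birc5 lost this call with DESeq2 (adjusted p = 0.0661), and Stmn1 with TMM (0.0681), DESeq2 (0.396) and no C1q UMI (log2 0.36, 0.865). Of the same list 3 of 6 rose against MHC II-high cells, Birc5 (1.35), Stmn1 (1.32) and H2afz (1.21), at a median of 1.25 against -0.00 over all genes tested, where 1.31% of all genes were higher. Birc5 lost the second call on leaving out heart TIL (0.0596), liver PC (0.315), kidney PC (0.0551) or kidney TIL (0.191), Stmn1 on leaving out liver PC (0.748), kidney PC (0.223) or kidney TIL (0.0859), and H2afz on leaving out liver PC (0.818), kidney PC (0.120) or kidney TIL (0.0620).

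Markers of other cell types were present in the selected cells, and their part in the results was not tested. Of 12 macrophage genes 8 had UMIs in liver PC, at 5797 CPM against 18881 in C1q-high and 18469 in MHC II-high cells, and from 3859 to 11096 over the 5 libraries. The defining macrophage genes Adgre1 and Mertk were at 0 in liver PC, against 285 and 75.6 CPM in C1q-high cells. The 10 monocyte genes summed to 6994 CPM against 7741 and 14895, and 2 of 5 tested fell against MHC II-high cells, Chil3 (log2 -1.60) and Hp (-1.58). In that fit 3.42% of all genes tested were lower. Chil3 lost the call without heart TIL (adjusted p = 0.0574) or liver PC (0.0593), and Hp without kidney PC (0.0788) or kidney TIL (0.0620). The 6 Kupffer cell genes summed to 146 CPM against 1109 and 190, with Timd4 at 0. The summed neutrophil level was 6235 CPM in liver PC (7 of 10 genes) and from 0 to 10720 over the libraries, beside Ffar2, which neutrophils share. The T cell list stood at 949 CPM (10 of 10 genes; 858 to 2231), the NK cell list at 1519 (7 of 8; 0 to 4805) and the B cell list at 248 (2 of 10; 0 to 693), with Ms4a1 at 0. The plasma cell list stood at 6527 CPM (6 of 6; 0 to 12007), above 1259 in C1q-high and 4233 in MHC II-high cells. Of the others, the neutrophil list stood at 4750 and 13275 CPM in those 2 kinds, the T cell list at 889 and 1410, the NK cell list at 1522 and 2651 and the B cell list at 138 and 571. The erythroid list was at 0 in liver PC, at 11096 in kidney PC and at 29160 in liver TIL, where C1q-high and MHC II-high cells stood higher, at 39522 and 63818. Of 3 erythroid genes tested 2, Hba-a1 and Hbb-bs, fell against MHC II-high cells, where 3.42% of all genes tested were lower. Both lost the call without heart TIL and liver TIL. Il1b was higher than in C1q-high cells (log2 1.30, adjusted p = 0.0176, edgeR), but 31 of its UMIs lay in 1 liver TIL cell and its value was -0.32 without that library (adjusted p = 0.0968 without kidney TIL). Igkc was higher in 1 of 5 libraries (0.93, adjusted p = 0.00148, edgeR), and its value was -0.31 without liver PC. Doublets were not called, and a well with more than 1 cell could not be told apart from a cell that expresses genes of both kinds.

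Cells near the limits of the selection are given as a description. In the 5 libraries 136 cells met every other limit with a sum of 1, and their Cst3 stood at 4974 CPM. The 28 cells with a sum of 2 stood at 8899 and the 22 with at least 3 at 17995. Liver PC gave 43, 17 and 18 of these cells, at 3694, 9411 and 18510 CPM. In heart TIL, kidney PC and kidney TIL the cells with a sum of 2 stood below those with a sum of 1, at 2775 against 4640, 1140 against 6548 and 4403 against 7825 CPM. The 8 cells kept out by at least 10 C1q UMIs stood at 5001 CPM, and the 5 kept out by a Cd79 UMI at 3603. Another 35 cells kept out by at least 2 Cd3 or Trac UMIs stood at 8788, and 11 of them held H2-DMb2. They stood at 22712 CPM in heart TIL (4 cells), 13913 in kidney PC (1) and 17291 in kidney TIL (1), above the selected cells there. In liver PC (26) and liver TIL (3) they stood at 7379 and 4563, below the selected cells. At the MHC class II limit, 4 cells with 5 to 9 UMIs stood at 1975 CPM and 7 with 10 to 20 at 845. The selected cells held between 14 and 282 MHC class II UMIs, with a median of 62. The 7 cells with fewer than 20 had Cst3 between 0 and 32.7 per 10000. Among them was the liver PC cell with 49 Jchain UMIs, and a liver PC cell with 47 UMIs of the neutrophil gene S100a8 and 7 of Elane, the elastase of granulocyte precursors.

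The selected cells formed no cluster of their own at the settings tried. Cells of each organ were clustered together on 2000 variable genes, and 26 of the 38 selected cells of the liver libraries fell into the same cluster of 2038 cells, 1.28% of it, out of 24 clusters. All 26 came from liver PC, and the 3 cells of the library labelled liver TIL lay in other clusters. The 12 others were spread over 9 more clusters. The cells inside that cluster had a median of 85.5 MHC class II UMIs and 161 Cst3 per 10000, and 8 of them held Xcr1 or Clec9a. The cells outside had medians of 45 and 94.3, and 4 held Xcr1 or Clec9a. At a Leiden resolution of 3 the same number, 26, lay in a cluster of 1007 cells (2.58%). Libraries were clustered with no correction between them. Of the cluster of 2038 cells, 1983 came from liver PC and 34 from the library labelled liver TIL. Separation by library and by cell type could therefore not be told apart. In the heart libraries 6 cells lay in 5 of 21 clusters, at most 0.457% of any, and 1.64% (1 of 61 cells) with 40 neighbours. In the kidney libraries 4 of 6 lay in a cluster of 469 cells (0.853%).

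**Figure D5:**
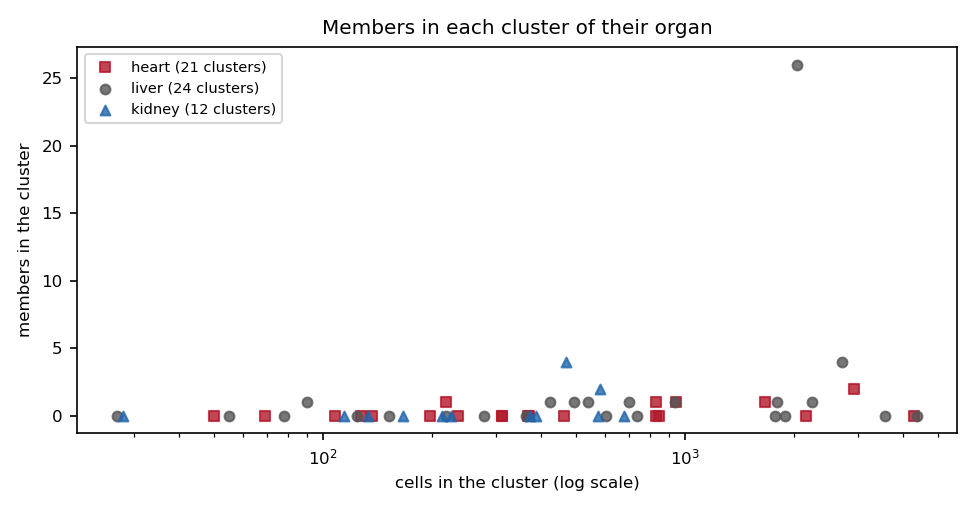
Selected cells in each cluster (vertical axis) against the number of cells in it (horizontal log axis) for the heart, liver and kidney libraries; each point is a cluster. The highest point is the liver cluster of 2038 cells with 26 selected cells.

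Strain origin was looked at through H2-Ea-ps, on chromosome 17 at 34341959 to 34344645, an MHC class II alpha gene that BALB/c mice transcribe and C57BL/6 mice do not. A UMI was found in 0 of the 50 selected cells, which allows a share of cells with a UMI of up to 6% by 3 counts (exact upper bound 7.11%). The share was 24 of 4199 C1q-high cells (0.572%), 21 of 4032 MHC II-high cells (0.521%) and 20 of 9027 T cells (0.222%). These shares differed between libraries: among MHC II-high cells 3.42% in kidney PC, 4.23% in kidney TIL and 0 of 2000 in liver TIL, and among C1q-high cells 1.79% in liver PC and 0 of 1840 in liver TIL. At this depth such shares were below what 50 cells could show, so the origin of the selected cells was not detectable.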

How the data were processed

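Gene-by-cell tables of whole-number UMI counts were deposited for 8 libraries of 10000 barcodes each; per the labels the authors used bcl2fastq and STAR with GRCm38. Selected cells and gene lists were chosen with earlier results of these data known. A comparison of libraries with at least 10 cells on each side was planned, but only liver PC qualified and no Cd209a cell was selected. After the counts were seen, UMIs were therefore summed per library and kind for all 5 tissue libraries and fitted in edgeR 4.0.16 (R 4.3.3) with the library as a block, filterByExpr and Benjamini-Hochberg adjustment. Library totals replaced TMM, under which the median log2 of simulated unchanged genes was -0.239 and -0.364 (C1q-high, MHC II-high). Under library totals these medians were 0.0317 and -0.0151. In simulation, log2 increases of 2 were recovered for 88% of genes against C1q-high cells and 86.3% against MHC II-high cells, and decreases of 2 for 59.5% and 68.1%. Increases of 1 were recovered for 27.7% and 17%, and decreases of 1 for 40.5% and 25%. The changed genes were drawn from the more abundant ones, and the percentages are of those that passed the filter. The simulated spread was the same for all genes. Recovery of genes at low counts, or of sums led by single cells, was not tested. Intervals are exact (scipy 1.17.1) and cover counting error only. Clusters used 30 components, 20 neighbours and Leiden resolution 1.5 (leidenalg 0.10.2). Named genes were list members, plus, per comparison, up to 12 higher and 12 lower genes called in the same direction in every library. Il1b and Igkc, both list members, and some genes outside the lists were singled out after their values were seen. Gene positions are from GENCODE. Doublets were not called. Alternatives included DESeq2 1.42.0, other limits of the selection and each library left out. Kept and lost calls cover only the alternatives in which the gene passed the filter and was tested.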

Additional observations from a re-analysis of the deposited data

Results flagged for a closer look

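The recipient blood libraries were not part of the selection. By the same limits 6 cells qualified in heart PBMC (0.0772% of its passing cells), 15 in liver PBMC (0.220%) and 2 (0.175%) in the blood of kidney recipients. These counts are given because these libraries lie outside the comparisons. Cd79 cells of the same libraries, as defined above, reached the 6-gene sum of 2 in 8 of 254 cells in heart PBMC (3.15%) and 13 of 367 in liver PBMC (3.54%). Among the MHC class II-high cells within the other limits it was 6 of 109 (5.50%) and 15 of 628 (2.39%). In liver PBMC 4 of the 15 cells held Cd209a, the type 2 dendritic cell gene that no selected tissue cell held. Cst3 reached 100 per 10000 UMIs in 0 of 6 heart PBMC, 2 of 15 liver PBMC and 1 of 2 kidney PBMC cells.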

How the results depend on the processing

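The 50 cells became 22 with a sum of at least 3, 11 without H2-Oa and Ffar2, 26 at 500 UMIs per cell and 16 with no C1q UMI (liver PC 0.18, 0.1, 0.14 and 0.12%). The 26 were chosen anew on thinned counts and were not all among the 50. Against C1q-high cells, 23 higher and 51 lower genes became 8 and 46 with TMM, 3 and 31 with DESeq2, and 100 and 71 without a filter. They became 4 and 11 without the library block, 3 and 17 at 1000 UMIs, and 9 and 23 with no C1q UMI. Leaving out 1 library gave 8 to 40 higher and 17 to 71 lower, and leaving out heart TIL and liver TIL 48 and 66. Against MHC II-high cells, 15 and 39 became 8 and 55 with TMM, 2 and 18 with DESeq2, 45 and 17 without a filter, and 1 and 1 without the block. They became 30 and 52 with a sum of at least 3, 30 and 66 without H2-Oa and Ffar2, and 4 and 12 with no C1q UMI. At 1000 UMIs they became 0 and 1, where edgeR had 11 higher and 34 lower at an unadjusted p under 0.05. Leaving out 1 library gave 6 to 36 and 10 to 76. The highest liver cluster share was 2.58% at resolution 3. Igkc (log2) turned to -0.0035 without the block and -0.38 with a sum of at least 3, and leaving out 1 library gave -0.31 to 1.67; for Il1b it gave -0.32 to 1.56, the lowest without liver TIL. The cause was not tested. Of the single-gene values, 671 kept direction and call and 336 kept direction only. Both fits paired the sums of a library through its block; the labels give no replicate numbers to pair libraries by. With 2 to 6 selected cells in 4 of 5 libraries, a gene at 0 there could have stood below 515 to 2080 CPM.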
